A study of Homo sapiens with 8 samples.

Results

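The steroid hormone receptor genes examined here are ESR1, ESR2, NR3C1, NR3C2, PGR and GPER1, taken by their symbols from the table of counts per gene. All 6 were among its 26364 genes, and all 6 were among the 14201 that passed the filter on low counts and were tested. RNA was sequenced from Ishikawa cells, a cell line established from a human endometrial adenocarcinoma. They were kept in medium without phenol red, a weak estrogen, and with serum depleted of steroids by charcoal. Cells received vehicle (DMSO), 100 nM dexamethasone (Dex), a synthetic glucocorticoid, 10 nM estradiol (E2), or both at these doses (the combination). Each of the 4 groups had 2 libraries, all from this same line, so no other cell background is represented. The sample labels give a treatment of 8 hr, and the treatment protocol shared by the samples gives 1 hr.

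Apart from GPER1, these genes encode nuclear receptors, transcription factors that bind a steroid, enter or stay in the nucleus and bind DNA as dimers. ESR1 and ESR2 encode estrogen receptors alpha and beta, which bind inverted repeats of the motif GGTCA. NR3C1 encodes the glucocorticoid receptor, NR3C2 the mineralocorticoid receptor and PGR the progesterone receptor, which share a response element with the core ACANNNTGT, where N is any base. GPER1 encodes a membrane receptor coupled to G proteins that has been described as a mediator of rapid estrogen signalling. In endometrial epithelium estradiol, through estrogen receptor alpha, induces the progesterone receptor, and progesterone then opposes estrogen-driven growth.

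Because PGR is a classical estrogen target, the DNA upstream of its starts was searched for these letters, together with that of the other receptor genes. RefSeq (GRCh38.p14) lists 27 transcription starts for the 6 genes, and the 250 bases upstream of each were searched on both strands. The 30 bases of PGR below hold a GGTCA motif (as its reverse complement, TGACC) followed by both SP1 boxes of that window (as the reverse complement of GGGCGG), all in capitals. They end 140 bases before an annotated start and lie in an exon of PGR, and of the antisense gene PGR-AS1, in the GENCODE 29 annotation. An estrogen receptor motif next to SP1 sites in PGR has been studied for its estrogen response in other cells.
PGR, chr11:101129218-101129247, minus strand: gagcTGACCagcgCCGCCCtcccCCGCCCc

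The other receptor genes with GGTCA in these windows were ESR1, ESR2 and NR3C2, and their sites are shown with 12 bases on each side for comparison with PGR, with the motif in capitals. The stretch printed for ESR1 overlaps an ESR1 exon by 19 bases. The second stretch printed for NR3C2 overlaps an NR3C2 exon by its last 5 bases, which lie outside the motif. The other stretches lie in introns of their gene. None of them has an SP1 box within the stretch printed.
ESR1, chr6:151690486-151690514, plus strand, 25 bases upstream of a start: tcctaatttcatGGTCAtaacagcctcct
ESR2, chr14:64294482-64294510, minus strand, 84 bases upstream: ctcccacttagaGGTCAcgcgcggcgtcg
ESR2, chr14:64294433-64294461, minus strand, 35 bases upstream: gctccctggctcGGTCAcgtgggctcagg
NR3C2, chr4:148442607-148442635, minus strand, 205 bases upstream: aagaagcccgccTGACCcgtgcggcgtgg
NR3C2, chr4:148442516-148442544, minus strand, 114 bases upstream: tatctggacatgTGACCcgcttttaaaag

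A full estrogen response element, GGTCA followed after any 3 bases by TGACC, which contains the single motif on both strands, was in 0 of the 27 windows and in 0.0401% of 34943 such windows over all genes. GGTCA alone was in 6 of the 27, against 32.6% over all genes (windows overlap, and 2 of ESR2 hold the same 2 sites and 2 of PGR the same site), and the SP1 box in 18 of the 27, against 42.5%. The glucocorticoid response element core was in 1 of the 27, against 4.62%. An AP-1 site, TGANTCA, was in 1 of the 27 (NR3C1), against 6.59%, and a TATA box, TATAAA, in 2 (NR3C1 and GPER1), against 10.8%. The glucocorticoid match lies outside the annotated gene, 68 bases upstream of the most distal ESR1 start, and is printed with its core in capitals.
ESR1, chr6:151656584-151656616, plus strand: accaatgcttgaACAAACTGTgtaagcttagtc

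Upstream of GPER1, the receptor gene that was higher with dexamethasone (below), neither window held the glucocorticoid core or GGTCA. The 224 bases that precede the more downstream start and fall outside annotated exons, in an intron of GPER1, are shown with the SP1 boxes in capitals. The matches above are letters in a window only, and no binding was measured in these libraries.
GPER1, chr7:1087863-1088086, plus strand: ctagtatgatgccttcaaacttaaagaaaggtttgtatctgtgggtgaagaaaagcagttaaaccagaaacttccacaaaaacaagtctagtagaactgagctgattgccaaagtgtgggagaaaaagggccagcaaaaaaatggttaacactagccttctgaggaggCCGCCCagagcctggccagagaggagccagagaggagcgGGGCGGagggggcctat

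Library totals were between 17846211 and 22487333 counts. Levels below are CPM (counts per 1000000, with TMM scaling between libraries), means ± SD of 2 libraries, and changes are log2 fold changes ± standard error. Changes were tested by quasi-likelihood in edgeR, fitted to all 8 libraries, and are called where the p adjusted by Benjamini-Hochberg over the 14201 genes is under 0.05. The labels do not tell separate cultures from repeat libraries of 1 culture. P-values therefore measure only how these libraries vary, which may be technical. Of 8 epithelial markers, 6 were at 179 CPM or more in every library (such as EPCAM, between 317 and 386 CPM), and the other 2 were low, KRT7 between 9.18 and 18.9 CPM and MUC1 between 5.07 and 9.26 CPM. CD3E and EMCN, of lymphocytes and endothelium, had 0 counts and the stromal marker DCN had 1 count in all. The summed level of the 8 epithelial markers was between 3270 and 3850 CPM in DMSO and between 4240 and 4740 CPM in dexamethasone. The 6 leukocyte markers summed to at most 3.09 CPM and the 5 endothelial markers to at most 3.2 CPM in any library, while the 7 stromal markers summed to between 127 and 188 CPM, nearly all of it COL1A1 (123 to 185 CPM). PGR was higher in replicate 1 than in replicate 2 of dexamethasone, and by a smaller ratio in DMSO and with estradiol (values below). ESR1 was also higher, and GPER1 lower, in replicate 1 than in replicate 2 of each of these groups. Results that rest on dexamethasone replicate 1 are given without it as well. Dexamethasone replicate 2 had 1.42% of its counts on the ribosomal RNA gene RNA45S5, against 2.79% to 4.03% elsewhere. In a bulk sample, fewer cells making an mRNA and less of it per cell cannot be told apart.

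To compare the receptors with one another, CPM were divided by the length in kb of the exons of each gene's coding transcripts (GENCODE 29). ESR1 was the most abundant in vehicle at 13.1 ± 1.32 CPM per kb, followed by NR3C1 at 7.92 ± 0.26 and NR3C2 at 3.66 ± 0.113. GPER1 was at 1.18 ± 0.0948, PGR at 0.241 ± 0.0805 and ESR2 at 0.0597 ± 0.00446 CPM per kb. Per length, ESR1 was 180 to 475 times as abundant as ESR2 in the 8 libraries, and 1.21 to 2.12 times as abundant as NR3C1. The vehicle cells thus had high ESR1 and NR3C1, little PGR and very little ESR2. With estradiol PGR reached 2.65 ± 0.476 CPM per kb, close to the 3.01 ± 0.0723 of NR3C2 in the same libraries, and the ESR1 level per length was then 3.25 and 4.07 times that of PGR in the 2 libraries, against 47.2 and 66.2 times in vehicle. These ratios depend on the length taken for each gene. With the longest coding transcript in place of all coding exons, ESR1 in vehicle was at 26.1, ESR2 at 0.102 and NR3C1 at 8.91 CPM per kb, and the order of the genes in vehicle was the same.

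**Figure D1:**
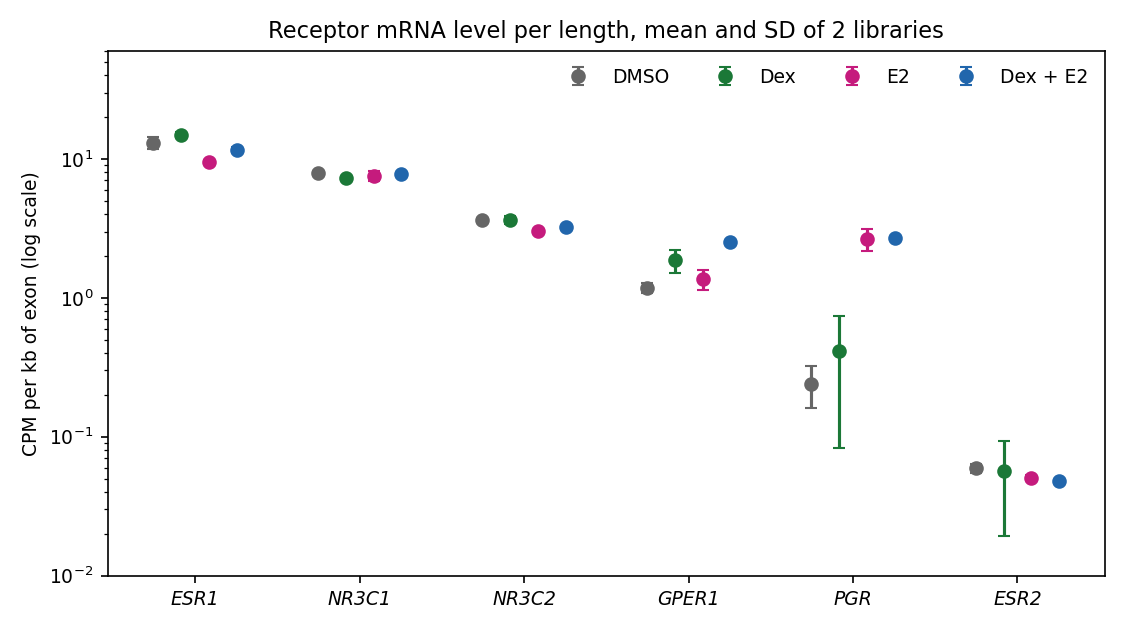
Level of each receptor mRNA in CPM per kb of exon (logarithmic axis) in the 4 groups. Points are means and bars SDs of 2 libraries; ESR1 is highest and ESR2 lowest in every group, and PGR moves from 0.241 in DMSO to 2.65 with estradiol.

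Estradiol lowered the mRNA of estrogen receptor alpha, and no change was detectable for that of estrogen receptor beta. ESR1 (GRCh38 chr6:151656691-152129619, plus strand, GENCODE 29, as for the other genes) was at 180.6 and 156.6 CPM in the DMSO libraries, 124.7 and 121.1 CPM with estradiol, 199.3 and 184.5 CPM with dexamethasone, and 144.2 and 154.0 CPM with the combination. All 4 libraries with estradiol were below all 4 without it, as were 5.89% of all genes tested. Estradiol alone lowered ESR1 by a log2 fold change of -0.46 ± 0.10 (95% interval -0.67 to -0.24, edgeR adjusted p = 0.0472), or 0.729 of the DMSO level. Averaged over cells without and with dexamethasone, the estradiol effect was -0.41 ± 0.07 (edgeR adjusted p = 0.00592). The call for estradiol alone was lost in 6 of 14 alternative fits: without DMSO replicate 1, without either estradiol library, without either combination library, and with only these 2 groups in the fit (adjusted p up to 0.304). The averaged effect passed in all 13 of its alternatives (adjusted p up to 0.0391).

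Dexamethasone did not move ESR1 past the threshold. With dexamethasone alone the log2 fold change was 0.19 ± 0.10 (95% interval -0.03 to 0.40, edgeR adjusted p = 0.588), and when added to estradiol it was 0.28 ± 0.10 (0.06 to 0.50, edgeR adjusted p = 0.622). The averaged dexamethasone effect was 0.23 ± 0.07 with an unadjusted p of 0.00689 and an edgeR adjusted p of 0.237. Ordered by mean, ESR1 was at 191.9 ± 10.49 CPM with dexamethasone, 168.6 ± 17.0 in DMSO, 149.1 ± 6.93 with the combination and 122.9 ± 2.58 with estradiol. No neighbours in that order differed past the threshold. Estradiol directly against dexamethasone did, at -0.64 ± 0.10 (edgeR adjusted p = 0.00495), a call lost when an estradiol library was left out (adjusted p up to 0.0583). The combination against dexamethasone was at -0.36 ± 0.10 (adjusted p = 0.0896 in edgeR and 0.0415 in DESeq2).

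ESR2 gave between 5 and 16 counts per library, so that its levels carry a wide counting error. The lowest library, dexamethasone replicate 2, had 5 counts (exact 95% Poisson interval 1.62 to 11.7, counting error only), and the highest, dexamethasone replicate 1, had 16 (9.15 to 26). In these dexamethasone libraries it was at 0.281 and 0.770 CPM, in DMSO at 0.525 and 0.584 CPM, with estradiol at 0.451 and 0.486 CPM, and with the combination at 0.444 and 0.449 CPM. The dexamethasone libraries thus enclosed all the others. ESR2 lies at chr14:64084232-64338112 on the minus strand, and 523 bases or 5.63% of its exons overlap AL161756.1 on the same strand, which was not analysed here. No change of ESR2 was detectable at this depth: the averaged estradiol effect was -0.25 ± 0.35, with a 95% interval of -1.02 to 0.51, and the averaged dexamethasone effect -0.06 ± 0.35, with one of -0.82 to 0.71.

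**Figure D2:**
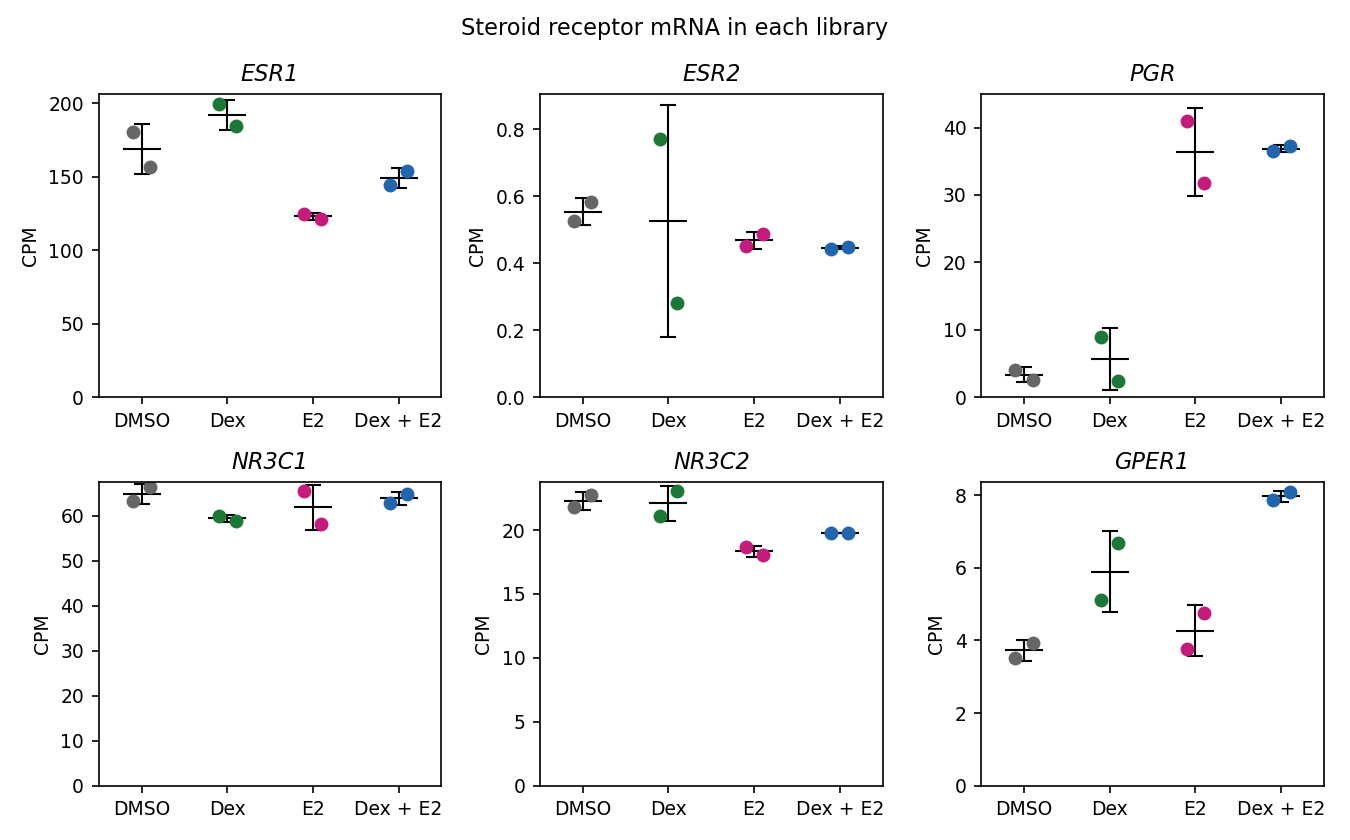
CPM of each receptor gene in each of the 8 libraries by treatment, on linear axes that start at 0. Coloured points are single libraries, and black lines are the mean and SD of 2; the PGR libraries with estradiol (31.8 to 41.0 CPM) lie above all others, and those of ESR1 with estradiol (121.1 to 154.0 CPM) below all others.

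PGR, the gene of the progesterone receptor (chr11:101029624-101130524, minus strand), changed the most of the 6 genes. It was at 4.09 and 2.53 CPM in the DMSO libraries (78 and 52 counts), 41.0 and 31.8 CPM with estradiol (729 and 720 counts), and 36.5 and 37.3 CPM with the combination. All 4 libraries with estradiol were above all 4 without it, as were 5.57% of all genes. Estradiol alone raised PGR by 3.46 ± 0.40 on the log2 scale, 11-fold (edgeR adjusted p = 0.00165), and the averaged estradiol effect was 3.06 ± 0.27, 8.36-fold (edgeR adjusted p = 0.000158). These calls passed under every alternative fit run (adjusted p up to 0.0277 and 0.00263), and the averaged effect was 3.68 without dexamethasone replicate 1.

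With estradiol present, adding dexamethasone left PGR at 36.9 ± 0.59 against 36.4 ± 6.55 CPM, a log2 difference of 0.02 ± 0.32. The 95% interval of that difference was -0.69 to 0.73, so changes within those bounds were not excluded. With dexamethasone alone PGR was at 8.91 CPM in replicate 1 (185 counts) and 2.47 CPM in replicate 2 (44 counts), a range that encloses both DMSO libraries. The log2 fold change against DMSO was 0.82 ± 0.45 (edgeR adjusted p = 0.605). Its direction rested on replicate 1: it was -0.41 without that library (adjusted p = 0.594) and 1.44 without replicate 2 (adjusted p = 0.0303). Estradiol added to dexamethasone raised PGR by 2.67 ± 0.37 (6.35-fold, edgeR adjusted p = 0.0048), and by 3.90 without dexamethasone replicate 1. The interaction (the effect of dexamethasone in the presence of estradiol minus its effect alone) was -0.80 ± 0.55 (95% interval -2.02 to 0.43, edgeR adjusted p = 1), and 0.44 without that library. Ordered by mean, the combination and estradiol were the highest and did not differ past the threshold, and dexamethasone and DMSO followed, also without a call between them. Some PGR counts are uncertain, since 812 bases or 5.91% of its exons overlap exons of PGR-AS1 on the other strand and the strand setting of the counting is not given in the sources used here. PGR-AS1 itself was not analysed here.

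GPER1, the membrane receptor gene (chr7:1082208-1093815, plus strand), was higher with dexamethasone. It was at 3.52 and 3.94 CPM in DMSO, 5.10 and 6.68 CPM with dexamethasone, 3.77 and 4.77 CPM with estradiol, and 7.85 and 8.08 CPM with the combination, from 67 to 180 counts per library. All 4 libraries with dexamethasone were above all 4 without it, as were 2.27% of all genes. The averaged dexamethasone effect was 0.77 ± 0.14 on the log2 scale, 1.71-fold (edgeR adjusted p = 0.0219). It kept its direction in each of its 13 alternatives, between 0.67 and 0.87, and its call in 7 of them. Without DMSO replicate 1, dexamethasone replicate 2 or any 1 of the estradiol and combination libraries it did not pass (adjusted p up to 0.123).

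The highest GPER1 level was that of the combination, 7.97 ± 0.16 CPM, against 3.73 ± 0.30 in DMSO. This difference of 1.09 ± 0.19 (2.13-fold, edgeR adjusted p = 0.0116) was called. It no longer passed once DMSO replicate 1 or a combination library was left out (highest adjusted p 0.0714). With dexamethasone alone the change was 0.65 ± 0.20 (edgeR adjusted p = 0.263), and with dexamethasone added to estradiol 0.89 ± 0.19 (adjusted p = 0.132, but 0.0109 without the filter on low counts and 0.0226 with only these 2 groups in the fit). Estradiol alone gave 0.20 ± 0.20 (95% interval -0.25 to 0.65, edgeR adjusted p = 0.847). The order of the means was combination, dexamethasone at 5.89 ± 1.11, estradiol at 4.27 ± 0.70 and DMSO, and no neighbours in it differed past the threshold. The interaction was 0.24 ± 0.28 (95% interval -0.37 to 0.85), so the dexamethasone effect was not shown to differ with estradiol. GPER1 lies inside C7orf50, a gene on the other strand, with 0 shared exon bases. C7orf50 had 59.0 ± 13.6 CPM in DMSO and 71.2 ± 5.98 CPM with the combination, and its averaged dexamethasone effect was 0.21 (edgeR adjusted p = 0.569). Its part in the GPER1 counts was not tested. The summed epithelial markers also lay higher with the combination (3670 to 3890 CPM) than with estradiol (3280 to 3460 CPM), and their part in the GPER1 difference was not tested.

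The corticosteroid receptor genes, whose products bind cortisol and dexamethasone (NR3C1) or aldosterone and cortisol (NR3C2), were not called in any comparison. NR3C1 lies at chr5:143277931-143435512 and NR3C2 at chr4:148078762-148444698, both on the minus strand. NR3C1 was at 63.4 and 66.4 CPM in DMSO, 59.95 and 58.93 CPM with dexamethasone, 65.5 and 58.3 CPM with estradiol, and 62.9 and 64.9 CPM with the combination. Both dexamethasone libraries were below both DMSO libraries, as were 17.7% of all genes, and the combination libraries fell within the range of DMSO and estradiol. Its change with dexamethasone alone was -0.13 ± 0.10 (95% interval -0.34 to 0.08, edgeR adjusted p = 0.712). The averaged dexamethasone effect was -0.04 ± 0.07, with an interval of -0.19 to 0.11, and the averaged estradiol effect 0.02 ± 0.07, with one of -0.13 to 0.17. Averaged changes beyond 0.19 in either direction thus lay outside both intervals. In order of the means, NR3C1 was at 64.9 ± 2.13 CPM in DMSO, 63.9 ± 1.44 with the combination, 61.9 ± 5.09 with estradiol and 59.4 ± 0.72 with dexamethasone, with no call between any of these groups.

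NR3C2 was at 21.8 and 22.8 CPM in DMSO and 21.1 and 23.1 CPM with dexamethasone, against 18.64 and 18.02 CPM with estradiol and 19.75 CPM in each combination library. All 4 libraries with estradiol were below all 4 without it, as with ESR1 and 5.89% of all genes. The averaged estradiol effect was -0.22 ± 0.08 (95% interval -0.39 to -0.05) with an unadjusted p of 0.0146, but it did not pass over all genes (edgeR adjusted p = 0.134). The averaged dexamethasone effect was 0.05 ± 0.08 (95% interval -0.12 to 0.22). In order of the means, DMSO and dexamethasone were above the combination and estradiol, and no pair of groups differed past the threshold.

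Counted together, the averaged estradiol effect was called for 2 of the 6 receptor genes, PGR higher and ESR1 lower, against 5.8% of all genes (2.54% higher and 3.26% lower), and the averaged dexamethasone effect for 1 of 6, GPER1, against 1.07% (1% higher and 0.0704% lower). The members' median log2 fold changes were -0.10 for estradiol and 0.14 for dexamethasone, with medians of all genes at 0. Of the comparisons between single groups, estradiol against DMSO called PGR and ESR1 (background 1.8% of genes) and the combination against DMSO called PGR and GPER1 (2.19%). The combination against dexamethasone called PGR (2.67%), and estradiol against dexamethasone called PGR and ESR1 (4.96%). Dexamethasone against DMSO (0.965%) called 0 of 6 in edgeR, DESeq2 and limma-voom, with 1 at an unadjusted p under 0.05, as 9.84% of all genes. The combination against estradiol (0.275%) called 0 of 6 in each tool, with 2 at an unadjusted p under 0.05, as 6.37% of all genes. The interaction (0.0211%) was called for 0 of 6 in each tool, and 0 had an unadjusted p under 0.05, against 5.16% of all genes. These comparisons share libraries and are not independent of one another.

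**Figure D3:**
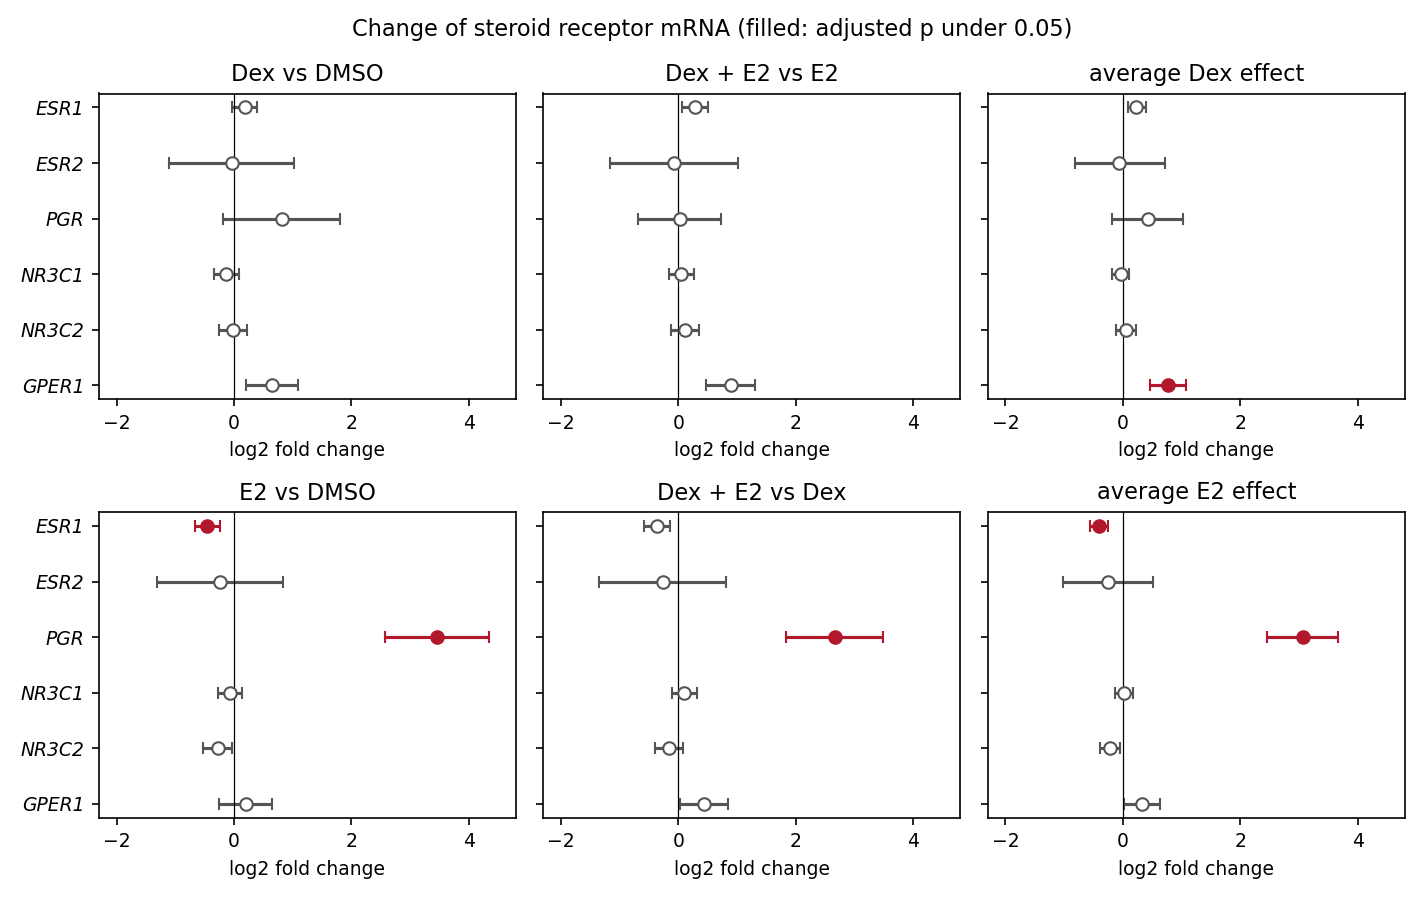
Log2 fold change of each receptor gene with its 95% interval in 6 comparisons, the upper row for dexamethasone and the lower row for estradiol. Filled red points passed an adjusted p of 0.05 over all genes; these are GPER1 for the averaged dexamethasone effect (0.77), ESR1 for estradiol alone and averaged (-0.46 and -0.41), and PGR in all 3 estradiol panels.

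For each receptor gene with a call between groups, the genes with the most similar pattern were taken by the Pearson correlation of log2 CPM over the 8 libraries, among 11973 genes. This is a description over libraries that share treatments. Those most like PGR were NPPC, the C-type natriuretic peptide gene (r = 0.994), SLC7A5, a transporter of large neutral amino acids (r = 0.993), and DHRS3, a retinaldehyde reductase gene (r = 0.992). Having been chosen over these libraries, they also follow PGR between replicates, which is no separate evidence. In dexamethasone replicates 1 and 2 DHRS3 was at 8.72 and 1.85 CPM, and in those of DMSO at 3.1 and 1.41 CPM. Their averaged estradiol effects were 3.58 for NPPC, 0.86 for SLC7A5 and 3.36 for DHRS3, all called. Since PGR itself differed with estradiol, calls of genes chosen for their likeness to it are no separate evidence either.

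The genes most like ESR1 were TNS1, which links integrins to actin (r = 0.964), GRHL2, an epithelial transcription factor gene (r = 0.962), and GSTM4, a glutathione transferase gene (r = 0.961). GRHL2 had mean levels of 93.2 CPM in DMSO, 101 CPM with dexamethasone, 71.5 CPM with estradiol and 78 CPM with the combination, and its averaged estradiol effect of -0.38 was called, but not without estradiol replicate 1 or combination replicate 1 (adjusted p up to 0.0613). TNS1 and GSTM4 were not called in the averaged effects. GRHL2 was chosen for its likeness to ESR1 over these libraries, so its call is no separate evidence. Among those most like GPER1 were PDE8B, a cAMP phosphodiesterase gene (r = 0.975), and CAPN2, a calpain gene (r = 0.966). Their changes were small beside that of GPER1, PDE8B having means of 4.59 CPM in DMSO and 6.14 CPM with the combination, and neither was called in the averaged effects.

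**Figure D4:**
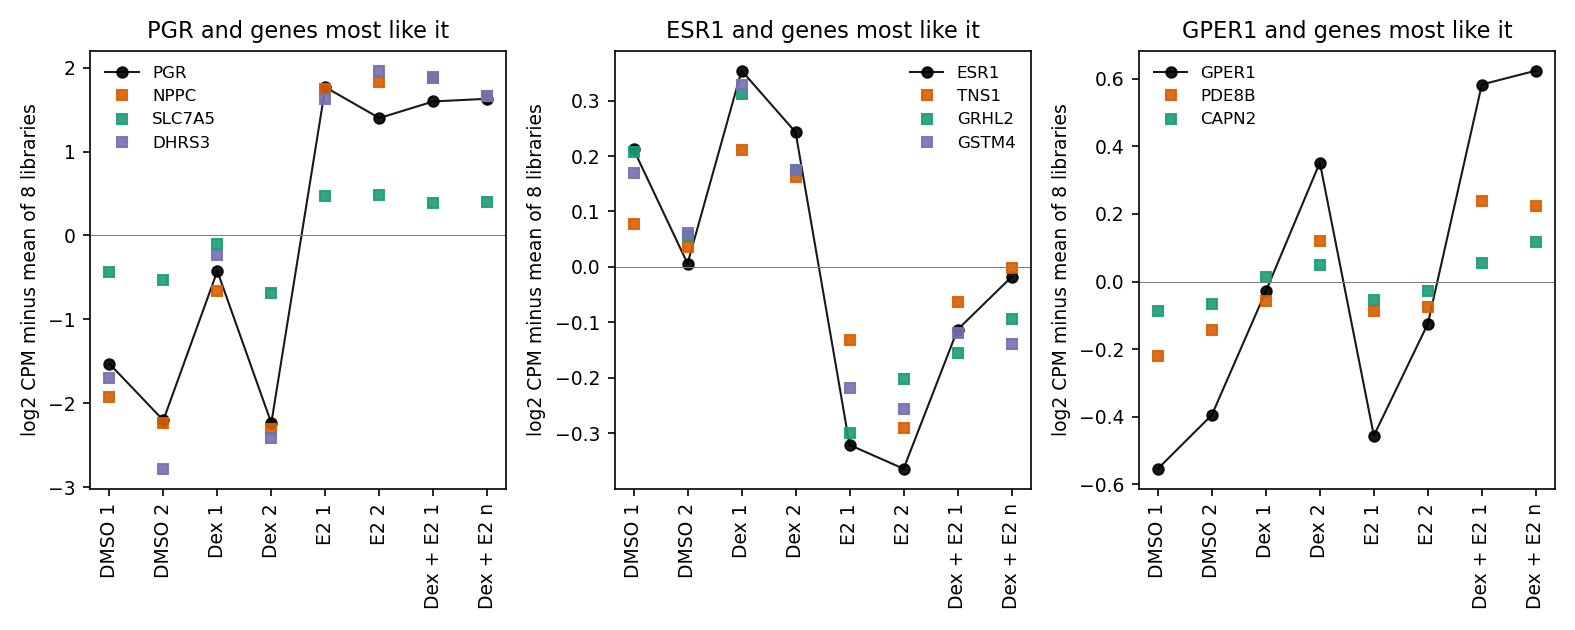
Log2 CPM minus the mean of the 8 libraries for PGR, ESR1 and GPER1 (black, joined by a line for legibility) and genes most correlated with each, 3 for PGR, 3 for ESR1 and 2 for GPER1 (squares). Libraries are on the horizontal axis, with n for the combination library whose column has no number of its own; in the left panel dexamethasone replicate 1 stands above replicate 2 for PGR and the 3 genes chosen for their likeness to it over these libraries.

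Known responses were present in these libraries. The lists below were chosen with earlier results of these data known, so their counts are a description and no separate evidence. TSC22D3, a glucocorticoid-induced leucine zipper gene, had an averaged dexamethasone effect of 2.90 ± 0.10, and PER1, a circadian repressor gene, one of 2.59 ± 0.08. GREB1, an estrogen-induced growth regulator gene, had an averaged estradiol effect of 1.68. Of 13 tested genes of a glucocorticoid response list 9 rose with dexamethasone on average (median 1.14), among them SCNN1A, a sodium channel subunit gene (1.63 ± 0.07), against 1% of all genes. In edgeR and limma-voom 0 of them were lower, and in DESeq2 1 was, CRISPLD2 (-0.32, adjusted p = 0.0466). Of 14 tested genes of an estrogen response list 7 rose with estradiol and 0 fell in edgeR, DESeq2 and limma-voom (median 0.57), among them CA12, a carbonic anhydrase gene (2.06 ± 0.17), and SLC9A3R1, a scaffold gene (0.79 ± 0.07). The median over all genes was 0 in both averaged effects. Counts of genes called in the averaged effects, for all lists in this paragraph, stand against the edgeR shares over all genes. These were 1% higher and 0.0704% lower with dexamethasone, and 2.54% higher and 3.26% lower with estradiol. Dexamethasone called 0 of these 14 in edgeR, DESeq2 and limma-voom, with 3 at an unadjusted p under 0.05, as 10.2% of all genes. Without dexamethasone replicate 2 edgeR called 1, GREB1 (0.71, adjusted p = 0.00646), whose effect was 0.02 without replicate 1. NR3C1 mRNA did not differ past the threshold with estradiol, and its part in the following changes was not tested. Of the 13 glucocorticoid response genes, estradiol against DMSO called 1 lower and 1 higher (median -0.15), against 1.8% of all genes in either direction. The combination against dexamethasone called 4 lower and 1 higher (median -0.39), against 2.67%. The interaction called 0, with 3 at an unadjusted p under 0.05, against 5.16% of all genes. In the averaged effect estradiol lowered 4 of the 13, among them TSC22D3 (-0.67 ± 0.10) and CRISPLD2 (-0.81 ± 0.08), and raised TFCP2L1 (1.09 ± 0.13). The other 2 that fell were NFKBIA (-0.27), an inhibitor of NF-kB, which passed in none of the 8 fits with 1 library left out (adjusted p up to 0.227), and PER1 (-0.30), which lost it without 6 of them (up to 0.176). Of 8 tested genes of a progesterone response list, 1 rose with estradiol, SOX17, an epithelial transcription factor gene (0.32 ± 0.08), and 0 did so without dexamethasone replicate 1. No progestin was given to the cells. With dexamethasone 3 of the 8 rose: FKBP5 and KLF9, both also on the glucocorticoid list, and SOX17.

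Receptor chaperones hold unliganded steroid receptors in a state that can bind hormone. The counts of this and the following lists stand against 1% of all genes called higher and 0.0704% lower with dexamethasone, and 2.54% higher and 3.26% lower with estradiol, in the averaged effects. Of 17 tested, 1 rose with dexamethasone on average, FKBP5, a co-chaperone that lowers hormone binding by the glucocorticoid receptor, from 88.4 ± 5.10 CPM in DMSO to 281 ± 31.0 CPM with dexamethasone (averaged effect 1.49 ± 0.08). With estradiol 2 of the 17 rose, HSPA8, a constitutive HSP70 gene (0.41 ± 0.07), and FKBP4, a co-chaperone that favours receptor activity (0.27 ± 0.06). FKBP4 lost its call without each library in turn other than dexamethasone replicate 1 (adjusted p up to 0.166). HSP90AA1 and HSP90AB1, which encode the HSP90 that binds the receptors, were not called, at 2520 ± 384 and 2790 ± 106 CPM in DMSO. The median of the 17 was -0.07 for dexamethasone and 0.09 for estradiol.

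Of 27 tested receptor coregulators, estradiol raised 2 and lowered 1. NRIP1, a corepressor that binds liganded estrogen receptor, went from 45.1 ± 4.33 CPM in DMSO to 103 ± 13.8 CPM with estradiol (averaged effect 1.14 ± 0.13). NCOA4, a cargo receptor for ferritin first described as a receptor coactivator, rose by 0.68 ± 0.07. PPARGC1A, a coactivator of mitochondrial genes, moved with both hormones. Its mean was 3.73 CPM in DMSO, 11.3 CPM with dexamethasone, 1.99 CPM with estradiol and 5.05 CPM with both hormones. Its averaged dexamethasone effect was 1.47 ± 0.13 and its averaged estradiol effect -1.03 ± 0.14, and it was the only one of the 27 called with dexamethasone. The medians of the list were -0.04 and 0.02.

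Among 18 tested enzymes that make or inactivate receptor ligands, HSD11B2, which inactivates cortisol and so shields the mineralocorticoid receptor, rose with estradiol by 1.36 ± 0.18, from 3.17 ± 0.56 CPM in DMSO to 9.99 ± 0.99 CPM. CYP1A1, which hydroxylates estradiol, fell (-2.07 ± 0.21). AKR1C2, which inactivates androgens and progestins, was called higher with dexamethasone (0.52 ± 0.10) and lower with estradiol (-0.44 ± 0.10). Each AKR1C2 call was lost without 6 of the 8 libraries taken one at a time, and its counts are uncertain because its paralogs are nearly identical. The median of the 18 was 0.14 for dexamethasone and -0.16 for estradiol.

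Of 16 tested transcription factors that act with these receptors in endometrium, dexamethasone raised KLF9 (1.53 ± 0.14) and SOX17 (0.65 ± 0.08). Estradiol raised CEBPB (0.58 ± 0.07) and SOX17 and lowered PAX8, a marker of Müllerian epithelium (-0.40 ± 0.08). SOX17 lost its estradiol call without 6 of the 8 libraries in turn (adjusted p up to 0.13) and PAX8 without 3, which were dexamethasone replicate 2, estradiol replicate 1 and combination replicate 1 (up to 0.0865). The medians of these 16 were 0.07 and -0.04. Of 7 tested estrogen-related and membrane progestin receptors, 0 were called with dexamethasone in edgeR, DESeq2 and limma-voom, with 1 at an unadjusted p under 0.05, and edgeR without the filter on low counts called PAQR6, a membrane progestin receptor gene, lower (-0.89, adjusted p = 0.0341). With estradiol edgeR and limma-voom called 0, DESeq2 called 1 lower and 4 had an unadjusted p under 0.05, as 20.1% of all genes. PGRMC1, a membrane-associated heme-binding protein gene, had a DMSO level of 269 ± 24.2 CPM and an estradiol level of 258 ± 15.1 CPM. PAQR8, another of these genes, had 7.08 ± 2.22 and 4.51 ± 0.80 CPM (averaged estradiol effect -0.64 ± 0.17, edgeR adjusted p = 0.0523). EdgeR called PAQR8 lower without the filter on low counts (adjusted p = 0.00446), without DMSO replicate 1 (0.00881), without dexamethasone replicate 1 (0.0437) and with the replicate block (0.0296), as did DESeq2 (0.0301). The lists were described by their counts and medians only, and none was set apart from other genes by a test. They share members, among them NRIP1, FKBP5, KLF9 and SOX17, whose calls are counted in more than 1 list.

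**Figure D5:**
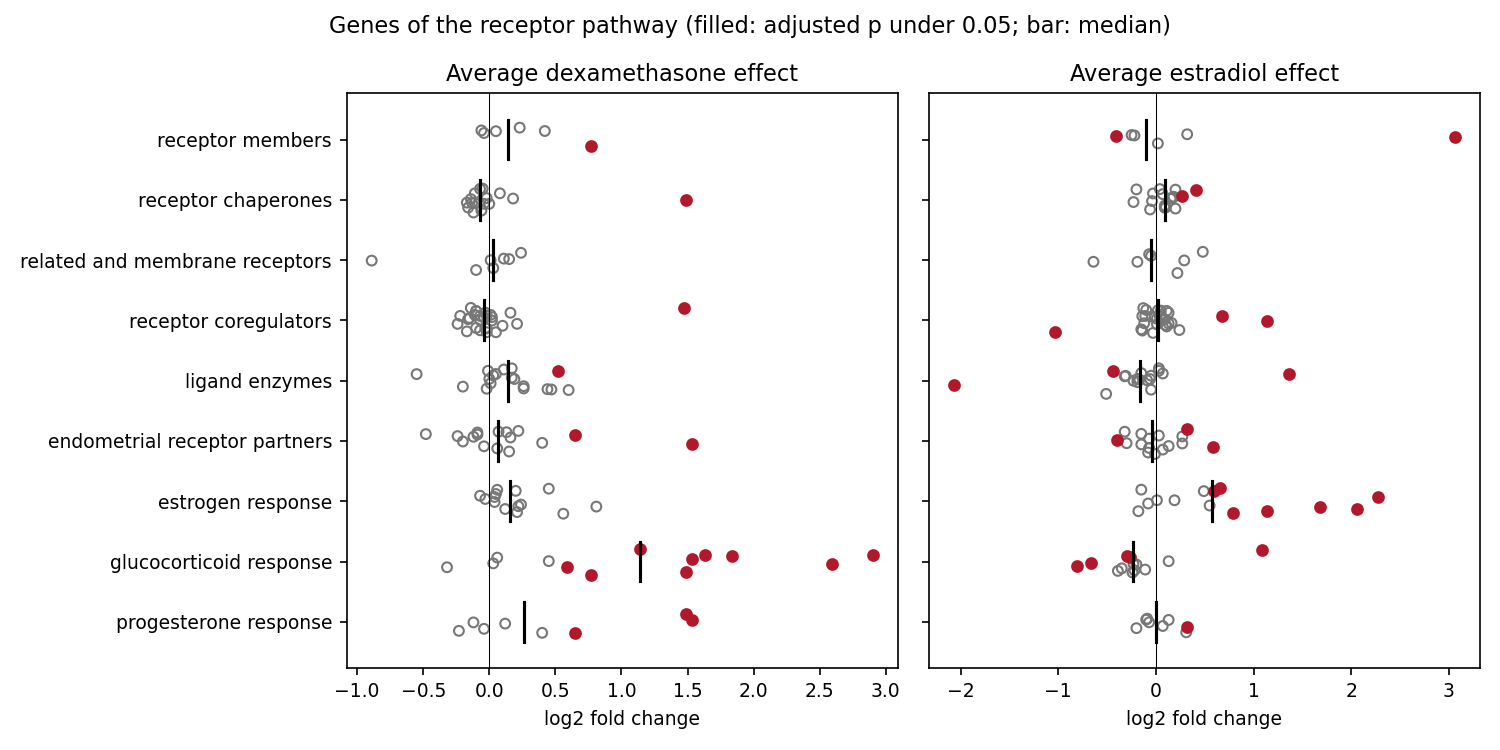
Log2 fold change of each tested gene of the receptor genes and 8 pathway lists, for the averaged dexamethasone (left) and estradiol (right) effects; vertical scatter within a list has no meaning. Filled points passed an adjusted p of 0.05 and bars are list medians; in most lists the points gather near 0 with 1 to 3 called genes apart, and only the glucocorticoid and estrogen response lists have medians above 0.5, each with its own hormone.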

How the data were processed

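RNA sequencing libraries of 8 samples were made with a stranded mRNA kit, per the labels' protocols. The authors deposited raw counts per gene and a normalised signal table. HISAT2 2.0.4, featureCounts 1.5.1 of Subread, DESeq2 1.14.1 and build hg19 are listed, without their roles, per the submitters' processing notes. Annotation and strand setting: not given in the sources used here. Each deposited normalised signal equals the count divided by 1 factor per library (0.876 to 1.11), and that table was not used further.

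Columns were matched to samples by name. As both columns of the combination end in 1, only the one spelled like the label of replicate 1 kept that number, and its partner was used with no number. Counts were fitted with edgeR 4.0.16 (R 4.3.3) after filterByExpr and TMM scaling, with 4 group means and 4 residual degrees of freedom. Averaged effects are the mean of a hormone's effects without and with the other hormone, 4 libraries on each side. Alternatives were RLE scaling, no low-count filter, DESeq2 1.42.0, limma-voom (limma 3.58.1), fits of 2 groups, each library left out, and a replicate block. The edgeR procedure was also run on simulated data, and that run is not used here as evidence for any call.

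Named genes were the receptor genes, 3 most correlated genes for each one called between groups, up to 3 members of each list with the smallest p in each averaged effect, and TSC22D3, FKBP5, PER1 and GREB1. Some genes that this takes are not reported here. NFKBIA, HSP90AA1, HSP90AB1, PGRMC1 and C7orf50 were added after their values were seen. The receptor genes and lists were chosen with earlier results of these data known. Sequences are from RefSeq (GRCh38.p14), in which all 6 genes were matched, and gene positions and lengths from GENCODE 29, another build than that of the counts.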

Additional observations from a re-analysis of the deposited data

How the results depend on the processing

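With 2 libraries a group, single libraries decided several calls. Over 736 fold changes of receptor genes under an alternative, 715 kept their direction or stayed uncalled, 17 lost a call, 4 gained one and 0 called changes reversed. The number of receptor genes called was 2 for estradiol against DMSO and 1 with only those 2 groups in the fit. For the combination against estradiol it was 0, and 1 without the filter on low counts or with only 2 groups (GPER1). For the combination against dexamethasone it was 1, and 2 in DESeq2 (ESR1). Leaving out each library gave 0 to 1 for dexamethasone against DMSO, 1 to 2 for estradiol against DMSO, the combination against DMSO and estradiol against dexamethasone, and 0 to 1 for the averaged dexamethasone effect. Changes of scaling moved no call of a receptor gene.

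Counts over all genes depended on single libraries as well: they were 58 to 298 (main 256) for estradiol against DMSO, 78 to 127 (137) for dexamethasone against DMSO, 157 to 325 (311) for the combination against DMSO, 82 to 183 (152) for the averaged dexamethasone effect and 422 to 904 (824) for the averaged estradiol effect. Replicate numbers are shared across groups, and deviations of same-numbered libraries correlated positively in each of the 3 pairs of groups. The correlation was 0.406 for DMSO and dexamethasone, 0.305 for DMSO and estradiol, and 0.07 for dexamethasone and estradiol. These values do not settle whether the numbers mark pairs, and the main fit has no replicate block. A replicate block over the 7 numbered libraries called the same number of receptor genes in all 9 comparisons (2 for the averaged estradiol effect), and over all genes 464 against 152 for the averaged dexamethasone effect, 1567 against 705 for estradiol against dexamethasone, and 176 against 379 for the combination against dexamethasone. Depth limits ESR2, with at most 16 counts in a library.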
